A study of Mus musculus with 6 samples.

Results

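The Schlafen (Slfn) and Ifitm families were followed through 10 genes, Slfn1, Slfn2, Slfn4, Slfn5, Slfn8, Slfn9, Ifitm1, Ifitm2, Ifitm3 and Ifitm6, chosen by gene symbol from the 47561 gene rows of the deposited tables. Each symbol had 1 row, and all 10 members were among the 15778 genes that passed the filter on low values. The libraries came from male wild-type (WT) mice after 4 weeks of chronic unpredictable mild stress (CUMS), in which varied environmental stressors follow each other, and from male wild-type Control mice. Each group held 3 libraries of neutrophils that were sorted from bone marrow by flow cytometry, each with the equivalent of 19711364 to 27439390 read pairs. The sources used here do not give age, strain, the sorting markers or whether a library was 1 animal or a pool, so p-values measure the spread between these libraries, part of which may be technical.

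Schlafen genes form a family of mouse growth-regulating and antiviral factors whose transcription rises with type I interferon in many cell types. Slfn1 and Slfn2 encode the short proteins of the family, Slfn4 (with Slfn3) an intermediate form, and Slfn5, Slfn8 and Slfn9 the long proteins that carry a helicase-like part. Ifitm genes encode small membrane proteins that hinder the entry of enveloped viruses, and most of them are induced by interferon as well. Ifitm3 and Ifitm2 act mainly at endosomes and Ifitm1 mainly at the cell surface, while Ifitm6 is found largely in blood-forming cells.

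Most Schlafen members rose and most Ifitm members fell in CUMS neutrophils. Slfn1, Slfn2, Slfn5 and Slfn8 were 1.14-fold to 1.25-fold higher in CUMS, and Ifitm1, Ifitm2 and Ifitm6 stood at 0.779 to 0.803 of their Control level. Slfn4, Slfn9 and Ifitm3 did not pass the test, an adjusted p below 0.05 over all genes. Thus 4 of 6 Schlafen members rose and 0 fell, where 2.36% of all genes tested rose. For Ifitm, 3 of 4 members fell and 0 rose, where 2.14% of all genes fell (4.5% passed in either direction). Among genes with a mean of at least 50 CPM, counts scaled to a common library total, as 9 of the 10 members had, 7.33% rose and 3.73% fell (11.1% in all). The median log2 fold change was 0.19 over the Schlafen members and -0.32 over the Ifitm members, against -0.0073 over all genes.

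The Schlafen members lie within 239 kb of chromosome 11 and the Ifitm members within 62.1 kb of chromosome 7, so each family is also a gene cluster. Starts of transcription from RefSeq (GRCm38.p6) were searched on both strands, from 250 bases before the start to 50 after it, for 2 motifs. The first was the core of the interferon-stimulated response element, 2 copies of GAAA with any 2 bases between them, and the second was TTCNNNGAA, the core of the interferon gamma-activated site. All 10 members had such a window. The first motif was present in 5 of them (Slfn5, Slfn8, Slfn9, Ifitm2 and Ifitm3) and in 3.99% of 27025 genes, and the second in Ifitm3 and Ifitm6 and in 9.55% of genes. Those 5 windows are shown from 170 bases before the start to 30 after it, because they hold the first motif and set Slfn8 beside Slfn9 and Ifitm2 beside Ifitm3, pairs in which one gene passed the test and the other did not (the difference within a pair was not tested). Capitals mark the first motif or its reverse complement. The sequences are from RefSeq, written 5′ to 3′ on the strand of the gene, at chr11:82951932-82952131 (plus strand, Slfn5), chr11:83020781-83020980 (minus, Slfn8), chr11:82991801-82992000 (minus, Slfn9), chr7:140955932-140956131 (minus, Ifitm2) and chr7:141010715-141010914 (minus, Ifitm3).
Slfn5: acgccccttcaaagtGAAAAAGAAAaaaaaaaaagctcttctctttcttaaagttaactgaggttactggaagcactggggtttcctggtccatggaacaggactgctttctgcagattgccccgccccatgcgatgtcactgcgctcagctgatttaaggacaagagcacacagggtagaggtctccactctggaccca
Slfn8: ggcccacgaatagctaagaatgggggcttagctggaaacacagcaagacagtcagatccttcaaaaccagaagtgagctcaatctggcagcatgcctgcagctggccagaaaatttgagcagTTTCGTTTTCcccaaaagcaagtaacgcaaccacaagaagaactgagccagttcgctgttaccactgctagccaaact
Slfn9: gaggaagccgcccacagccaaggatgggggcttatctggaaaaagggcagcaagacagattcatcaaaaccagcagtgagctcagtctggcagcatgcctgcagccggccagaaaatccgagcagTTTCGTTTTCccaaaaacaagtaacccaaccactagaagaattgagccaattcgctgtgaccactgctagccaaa
Ifitm2: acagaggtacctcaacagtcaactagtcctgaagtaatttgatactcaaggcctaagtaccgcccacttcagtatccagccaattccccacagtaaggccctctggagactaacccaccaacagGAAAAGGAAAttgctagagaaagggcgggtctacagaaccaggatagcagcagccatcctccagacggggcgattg
Ifitm3: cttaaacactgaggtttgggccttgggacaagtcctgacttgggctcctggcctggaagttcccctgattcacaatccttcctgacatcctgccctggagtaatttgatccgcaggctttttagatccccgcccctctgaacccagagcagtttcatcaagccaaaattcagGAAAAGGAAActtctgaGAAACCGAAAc
The windows of Slfn8 and Slfn9 were 81.5% identical over 211 aligned positions and held the same match, TTTCGTTTTC, which begins 48 bases before the start of Slfn8 and 45 before that of Slfn9. Every other pair within a family had between 45.8% and 54.3% identity. Ifitm2 and Ifitm3 shared the match GAAAAGGAAA at different places, 46 bases before the start and at base 3 after it. Ifitm3 has a further match, GAAACCGAAA, at base 20, which overlaps its TTCTGAGAA at base 14. A second annotated start of Slfn8 has the same letters 136 bases before it. In RefSeq the genes Slfn5, Ifitm1 and Ifitm2 begin at 82951349, 140967429 and 140959686, outside the windows searched. Matches and distances given for these genes hold for the start that was used. A match describes letters, and no bound factor was measured. Slfn1, Slfn2, Slfn4 and Ifitm1 had neither run of letters in these windows.

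**Figure D1:**
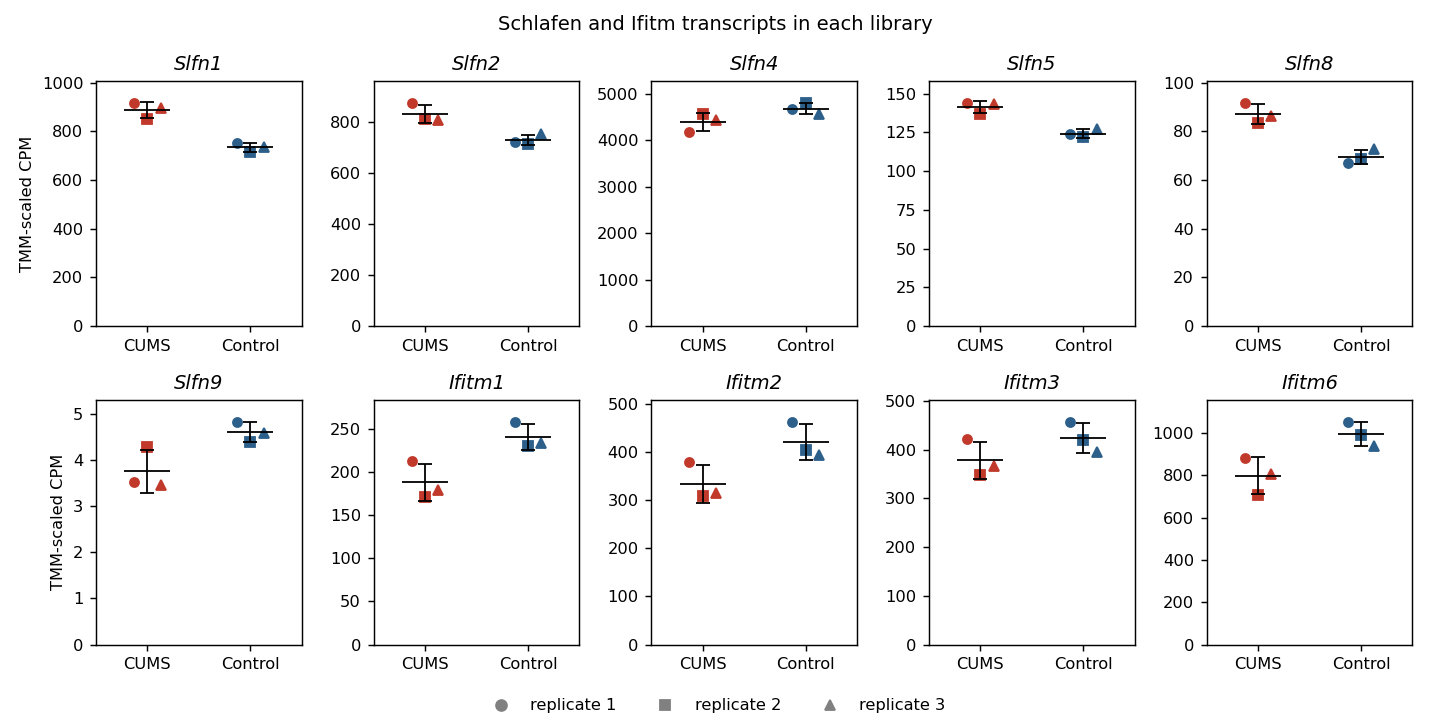
TMM-scaled CPM (vertical axis, from 0) of the 10 members in each CUMS and Control library; marker shapes give the replicate, horizontal bars the mean and whiskers the SD of 3 libraries. CUMS lies above Control for Slfn1, Slfn2, Slfn5 and Slfn8 and below it for Ifitm1, Ifitm2 and Ifitm6, while the Ifitm3 libraries overlap.

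Slfn1 had 915, 852 and 896 CPM in the CUMS libraries (replicates 1 to 3), against 754, 717 and 734 CPM in the Control libraries. The lowest CUMS library exceeded the highest Control library by 98.4 CPM. The log2 fold change of CUMS over Control was 0.27 ± 0.039 (SE; adjusted p = 0.0025) in edgeR's quasi-likelihood test with Benjamini-Hochberg adjustment over all genes, the test behind every adjusted p below. Slfn1 lies at 83116849 to 83122670 on the plus strand of chromosome 11 (GRCm38, GENCODE M21) and has 1 annotated transcript of 2 exons.

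Slfn2, which keeps T cells and monocytes quiescent in mice, had 871, 812 and 805 CPM in CUMS, against 722, 710 and 751 CPM in Control. The groups did not overlap. The log2 fold change was 0.19 ± 0.042, adjusted p = 0.025. The ratio of Slfn1 to Slfn2 by CPM, not corrected for length, was 1.05 to 1.11 in CUMS and 0.977 to 1.04 in Control. In a plain comparison of 3 against 3 libraries an exact two-sided permutation test cannot go below 0.1, and 9 of the 10 members reached that value, Ifitm3 being the exception at 0.3. The groups of 9 members did not overlap, 4 of them higher and 5 lower in CUMS. Such groups were seen in 22.9% of all genes tested (11.5% higher and 11.5% lower) and in 36.5% of those with at least 50 CPM (24.4% higher and 12.1% lower).

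Slfn4, which in mouse macrophages is induced by type I interferon and Toll-like receptor ligands, was the most abundant member. By group mean it was so per length of exon too, though its Control libraries then overlapped those of Ifitm6. Slfn4 had 4190, 4565 and 4433 CPM in CUMS, against 4685, 4801 and 4575 CPM in Control, and ranked 13 of 15778 genes by mean CPM. The CUMS libraries lay below the Control libraries with a gap of 10.8 CPM, and the change did not pass the test (log2 fold change -0.09, 95% interval -0.17 to -0.01, adjusted p = 0.22). This interval, like those below, is not adjusted for the number of genes. Slfn4 is annotated at 83175186 to 83190216 with 3 transcripts of up to 8 exons.

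The sum of the family was nearly the same in both groups, unlike that of the members other than Slfn4. Summed over the 6 Schlafen members, CUMS libraries had 6345 ± 121 CPM and Control libraries 6348 ± 79.2 CPM (SD, n = 3 each). Without Slfn4 the sum was 1949 ± 69.5 CPM in CUMS and 1661 ± 35.1 CPM in Control, 17.4% higher in CUMS. Slfn4 took 67.4% to 70.7% of Schlafen counts in CUMS libraries, against 73.0% to 74.8% in Control libraries. The Slfn4 to Slfn1 ratio, 4.58 to 5.36 in CUMS and 6.22 to 6.70 in Control, did not overlap between the groups either. These sums and ratios were chosen after the values were seen and carry no test.

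Slfn8, a long Schlafen, showed the largest rise of the members on the log2 scale, with 91.5, 83.6 and 86.4 CPM in CUMS, against 67.1, 68.5 and 72.9 CPM in Control. For Slfn8 this was a log2 fold change of 0.33 ± 0.054 (adjusted p = 0.0058). Slfn5, a further long member, had 144, 137 and 143 CPM in CUMS, against 124, 122 and 127 CPM in Control (log2 fold change 0.19 ± 0.043, adjusted p = 0.032). The groups did not overlap for either gene. Slfn8 lies at 83002158 to 83020810 on the minus strand and Slfn5 at 82951349 to 82964840 on the plus strand of chromosome 11.

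Slfn9, the neighbour of Slfn8 at 82978390 to 82991830 on the minus strand, is a similar long gene but was scarce. It had 3.53, 4.29 and 3.45 CPM in CUMS, against 4.83, 4.40 and 4.59 CPM in Control. That equals 74.3 to 119 read pairs per library, and the log2 fold change of -0.29 had a 95% interval of -0.63 to 0.04 (adjusted p = 0.37). The Slfn8 to Slfn9 ratio was 19.5 to 25.9 in CUMS and 13.9 to 15.9 in Control.

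**Figure D2:**
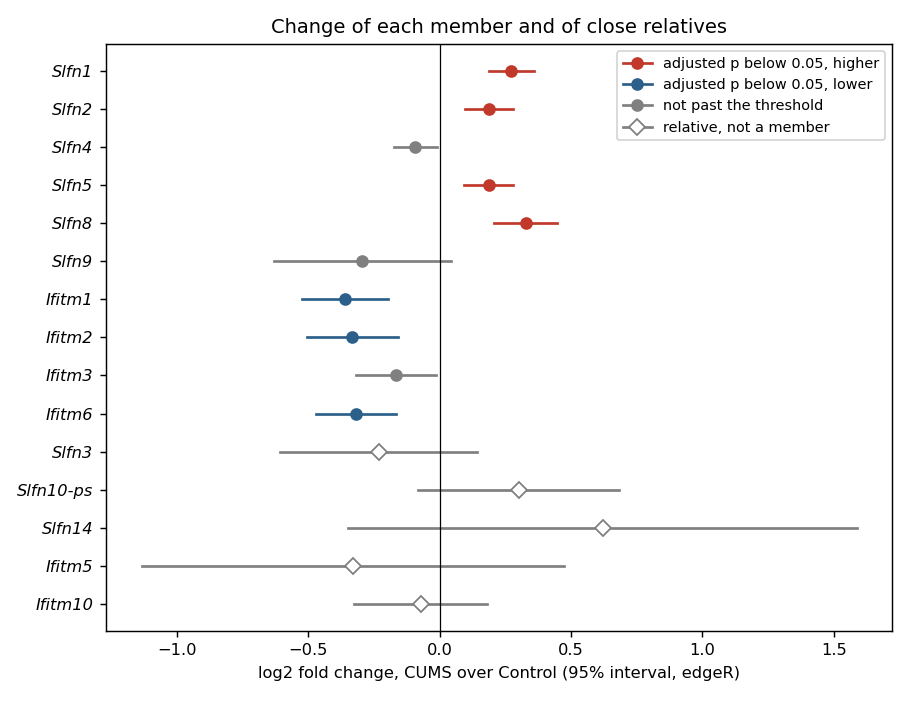
log2 fold change of CUMS over Control (horizontal axis) with its 95% interval from edgeR, for the 10 members (circles) and the 5 relatives tested (open diamonds). Red marks genes higher and blue genes lower in CUMS at an adjusted p below 0.05; the 4 red members lie between 0.19 and 0.33 and the 3 blue ones between -0.36 and -0.32.

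All 4 Ifitm members were lower in CUMS on average. Ifitm6, the most abundant, had 883, 709 and 803 CPM in CUMS, against 1052, 992 and 939 CPM in Control. The highest CUMS library stayed 55.5 CPM below the lowest Control library. The log2 fold change was -0.32 ± 0.069, adjusted p = 0.024. Ifitm6 lies at 141015699 to 141017924 on the minus strand of chromosome 7.

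Ifitm1 fell the most on the log2 scale. It had 212, 171 and 180 CPM in CUMS, against 258, 230 and 234 CPM in Control. The groups were apart by 18.1 CPM, and the log2 fold change was -0.36 ± 0.074 (adjusted p = 0.018). Ifitm1 is the member of its cluster read from the plus strand, at 140967221 to 140969825 on chromosome 7.

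Ifitm2, at 140954837 to 140955987, and Ifitm3, at 141009586 to 141010770, are read from the minus strand and encode closely related endosomal proteins. Ifitm2 had 378, 307 and 315 CPM in CUMS, against 462, 403 and 393 CPM in Control (log2 fold change -0.33 ± 0.079, adjusted p = 0.037), without overlap. Ifitm3, the best known antiviral member, had 421, 348 and 367 CPM in CUMS, against 458, 420 and 396 CPM in Control. CUMS replicate 1 lay inside the Control range, and the Ifitm3 log2 fold change of -0.17 had a 95% interval of -0.32 to -0.01 (adjusted p = 0.25). The Ifitm2 to Ifitm3 ratio was 0.857 to 0.897 in CUMS libraries and 0.959 to 1.01 in Control libraries. That ratio was chosen after the values were seen and was not tested. The sum over the 4 Ifitm members was 1698 ± 182 CPM in CUMS and 2079 ± 137 CPM in Control (SD, n = 3 each), and Ifitm6 held 46.2% to 48.3% of it in CUMS and 47.2% to 48.5% in Control.

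The calls differed in how much they leaned on single libraries. Slfn1 and Slfn8 passed whichever library was left out, with adjusted p of 0.0041 to 0.023 and 0.013 to 0.036. Slfn5 missed the threshold whichever library was left out (adjusted p from 0.061 to 0.15). Slfn2, Ifitm1, Ifitm2 and Ifitm6 still passed without CUMS replicate 1 (adjusted p of 0.046, 0.0024, 0.0062 and 0.0069). Without CUMS replicate 2, CUMS replicate 3 or any 1 Control library they did not, with adjusted p from 0.0501 to 0.12 for Slfn2, 0.053 to 0.10 for Ifitm1, 0.068 to 0.18 for Ifitm2 and 0.0502 to 0.10 for Ifitm6. Ifitm3 passed without CUMS replicate 1, at a log2 fold change of -0.25 and an adjusted p of 0.043. Each member kept its sign in these fits. Without the filter on low counts Ifitm1, Ifitm2 and Ifitm6 missed the threshold (adjusted p of 0.051, 0.097 and 0.071), and with DESeq2 Ifitm2 did (adjusted p = 0.057).

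The Ifitm members varied together within each group. CUMS replicate 1 was the highest CUMS library for 4 of 4 Ifitm members, 10.6% to 13.4% above the CUMS mean, and Control replicate 1 the highest Control library for 4 of 4, 5.8% to 10.2% above the Control mean. CUMS replicate 2 was the lowest CUMS library for all 4. CUMS replicate 1 was also the highest CUMS library for Slfn1, Slfn2, Slfn5 and Slfn8, by smaller margins of 1.7% to 5.0% above the CUMS mean. The coefficient of variation of the 4 genes was 10.1% to 11.7% in CUMS and 5.72% to 8.93% in Control, while Slfn1, Slfn2, Slfn4, Slfn5 and Slfn8 stayed between 2.20% and 4.62% in either group. Of 12 marker lists, 4 had sums that ranked the libraries of each group in the same order as the Ifitm sum, those of neutrophils, monocytes, eosinophils and plasma cells. The sum of 12 neutrophil markers was 138115, 111146 and 116720 CPM in CUMS replicates 1 to 3, against 142440, 133890 and 130364 CPM in Control replicates 1 to 3. The monocyte sum was 824, 736 and 752 CPM in CUMS, against 812, 781 and 759 CPM in Control. The monocyte sum was mostly Ly6c2, and the plasma cell sum was at most 7.11 CPM in a library. Orders of so few libraries can match by chance, and how many lists would do so was not worked out. The part of this shared variation in the Ifitm result was not tested.

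**Figure D3:**
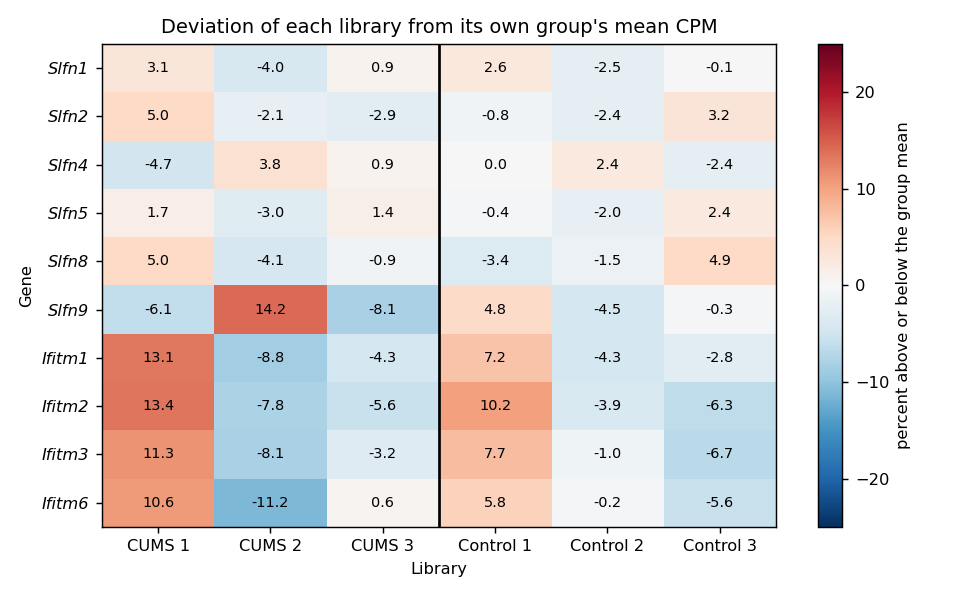
Deviation of each library (columns) from the mean CPM of its own group, in percent, for each member (rows). The 4 Ifitm rows are positive in CUMS replicate 1 and Control replicate 1, and Slfn9, the scarcest gene, shows the largest single deviation, in CUMS replicate 2.

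Levels can be set roughly against each other once divided by the length of the exons, here of all GENCODE M21 transcripts of a gene together. The annotation behind the deposited values may differ, and fragment size was not corrected for, so the order of close values is uncertain. In CUMS, Slfn4 stood first with 1109 ± 48.0 CPM per kb of exon and Ifitm6 second with 882 ± 96.6 CPM per kb. Ifitm3, Ifitm2, Slfn2 and Slfn1 followed at 559, 509, 499 and 476 CPM per kb, neighbours whose CUMS libraries overlapped each in turn. In Control, Slfn4 had 1182 ± 28.5 and Ifitm6 1099 ± 62.8 CPM per kb, and their libraries overlapped. Ifitm2 and Ifitm3 (640 and 626 CPM per kb, overlapping) came next in Control, then Slfn2 (437), Slfn1 (394) and Ifitm1 (220), which did not overlap. Ifitm1 had 172 CPM per kb in CUMS. Slfn5 and Slfn8 were far lower at 22.3 and 21.3 CPM per kb in CUMS, where they overlapped, against 19.6 and 17.0 in Control, where they did not, and Slfn9 had 0.630 in CUMS and 0.773 in Control. By CPM per kb over all libraries, 7 members ranked between 22 and 190 of 13830 genes with a known length, while Slfn9 ranked 9307.

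The remaining relatives of the 2 families were scarce, and 0 of the 5 tested passed with edgeR or DESeq2, with 0 at an unadjusted p under 0.05. DESeq2 gave no adjusted p for Slfn14 and Ifitm5. Slfn3, the partner of Slfn4 in size, had 4.84 ± 0.610 CPM in CUMS and 5.69 ± 1.07 CPM in Control. The annotated pseudogene Slfn10-ps had 3.95 ± 0.707 CPM in CUMS and 3.21 ± 0.133 CPM in Control, Slfn14 had 0.598 ± 0.125 CPM in CUMS and 0.388 ± 0.0575 CPM in Control, and Ifitm10 had 9.84 ± 1.09 CPM in CUMS and 10.3 ± 0.537 CPM in Control (SD, n = 3 each). Ifitm5, the bone-cell member, had 1.07 CPM in CUMS and 1.35 CPM in Control, and its sign turned without Control replicate 1 (0.047). The sign of Ifitm10 turned without CUMS replicate 3 (0.021). Slfnl1 and Ifitm7 did not pass the filter, and Ifitm7 was listed at 0 in all 6 libraries.

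Members of such families can exchange reads. Of the 150-base windows of the GENCODE M21 transcripts, 1.46% of those of Slfn9 and 0% of those of the other 9 members occurred exactly in another Slfn or Ifitm transcript. With 50-base windows, the share reached 14.6% for Slfn8 and 11.2% for Slfn9, mostly with Slfn10-ps, 8.15% for Slfn4 and 5.56% for Ifitm3, and was at most 4.27% for the rest. The sources used here do not say how such reads were divided. Slfn5os, the antisense gene that overlaps exons of Slfn5, was listed at 0 in all 6 libraries. Exons of Gm45717, a protein-coding gene on the same strand, overlap those of Ifitm2. Gm45717 had no row under that symbol in the deposited tables, and reads of these genes could not be told apart.

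Of all genes tested, 2.36% rose and 2.14% fell. Within 100 kb of the Schlafen members, 10 other genes were tested, of which 1 rose and 0 fell. The relatives Slfn3, Slfn10-ps and Slfn14 are counted among them. The gene that rose, the long noncoding Gm38922, starts 490 bases beyond the end of Slfn1. Gm38922 had 9.61, 10.6 and 9.91 CPM in CUMS, against 7.46, 6.91 and 6.88 CPM in Control (log2 fold change 0.50 ± 0.11, adjusted p = 0.024). Gm38922 missed the threshold once replicate 2 or 3 of either group was left out (log2 fold change 0.47 to 0.52, adjusted p from 0.083 to 0.11). Within 100 kb of the Ifitm members, 11 other genes were tested, with log2 fold changes from -0.33 to 0.16. The lowest value was that of the relative Ifitm5, and the highest that of Pkp3, at 0.208 CPM in CUMS and 0.185 CPM in Control. The median of the 11 was -0.18, against -0.0073 over all genes, and 9 of the 11 were lower in CUMS, as the Ifitm members were. The median of the 10 genes around the Schlafen members was 0.08. Of the 11 genes around the Ifitm members, 0 passed with edgeR or DESeq2 and 2 had an unadjusted p under 0.05. Those were Psmd13, a proteasome subunit gene (log2 fold change -0.19, adjusted p = 0.19), and the pseudogene Gm7514 (-0.22, adjusted p = 0.25). Without CUMS replicate 1, the library highest in the Ifitm members, Psmd13 passed (-0.27, adjusted p = 0.027).

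**Figure D4:**
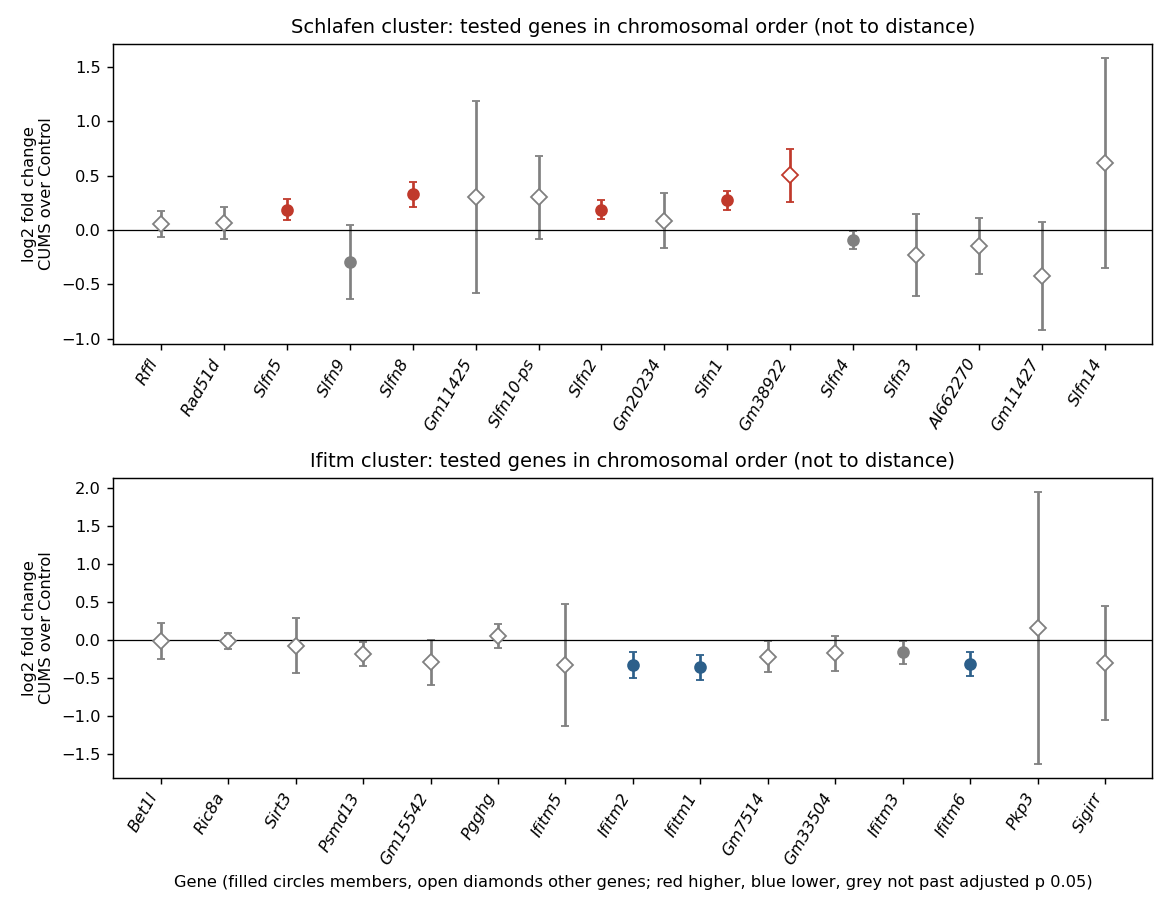
log2 fold change (vertical axis, CUMS over Control, with 95% intervals from edgeR) of the tested genes within 100 kb of each cluster, in chromosomal order and not to distance. Filled circles are members and open diamonds other genes; besides 4 Schlafen and 3 Ifitm members, Gm38922 passed the test.

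Other interferon-response genes were mostly higher in CUMS, as the 4 Schlafen genes were. Of 66 listed genes other than the members, 60 were tested, 16 rose and 0 fell, with log2 fold changes of the called genes from 0.21 to 0.67. In all, 54 of the 60 were higher, and the list's median was 0.21. Its share called, 26.7%, stands against 4.5% of all genes and 11.1% of those with a mean of at least 50 CPM, which not all listed genes reached. The antiviral gene Ifit3 had 52.6, 54.3 and 52.3 CPM in CUMS, against 34.0, 33.3 and 32.7 CPM in Control (adjusted p = 5.1e-05). All CUMS libraries were well above the Control libraries for Ifit3. Log2 fold changes were 0.61 ± 0.13 for Ifi47, an interferon-inducible GTPase gene, 0.46 ± 0.086 for Zbp1, a sensor of unusual nucleic acids, and 0.39 ± 0.041 for the antiviral enzyme gene Rsad2. Ifi47 lost its call once replicate 2 or 3 of Control, or 1 or 3 of CUMS, was left out (0.55 to 0.58, adjusted p from 0.067 to 0.11), and Zbp1 once Control replicate 3 was (0.42, adjusted p = 0.060). Ifit3b (0.55 ± 0.061) is a near copy of Ifit3, so the split between them is uncertain. The known targets Isg15 (0.08), Irf7 (0.07) and Oas2 (-0.11), chosen after their values were seen, did not pass (adjusted p of 0.76, 0.64 and 0.35). The count of 16 was 10, 10 and 7 when CUMS replicate 1, 2 or 3 was left out, and 9 and 6 when replicate 2 or 3 of Control was.

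Of 31 tested genes that make, sense or pass on interferon, 3 rose and 1 fell, and the list's median log2 fold change was 0.04. The share called was 12.9%, against 4.5% of all genes and 11.1% of those with a mean of at least 50 CPM. Among those that rose were the kinase gene Jak1 (log2 fold change 0.17 ± 0.038, adjusted p = 0.028) and Irf2 (0.25 ± 0.048, 0.013), whose product competes with activating IRF proteins. Without CUMS replicate 3 neither Jak1 nor Irf2 passed (adjusted p of 0.13 and 0.082); Irf2 was also lost without Control replicate 2 or 3 (0.064 and 0.067), and Jak1 without Control replicate 1 or 2 or CUMS replicate 2 (0.067, 0.13 and 0.11). Socs3, a feedback inhibitor of cytokine receptors, fell by 0.54 ± 0.052 on the log2 scale (adjusted p = 1.7e-04), with 78.6 ± 1.73 CPM in CUMS and 114 ± 6.35 CPM in Control (SD, n = 3 each). The receptor genes Ifnar1, Ifnar2, Ifngr1 and Ifngr2 had log2 fold changes of 0.05, -0.12, -0.14 and -0.05 and did not pass (adjusted p from 0.18 to 0.70). Ifna1, Ifna2, Ifna4, Ifnb1, Ifne, Ifnl2 and Ifnl3 were listed at 0 in all 6 libraries. Of 16 other antiviral restriction factors tested, Trim30d rose (138 ± 4.14 CPM in CUMS and 112 ± 4.87 CPM in Control, log2 fold change 0.29 ± 0.048, adjusted p = 0.0054) and 0 fell. The share called on that list was 6.25%, near the 4.5% of all genes.

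**Figure D5:**
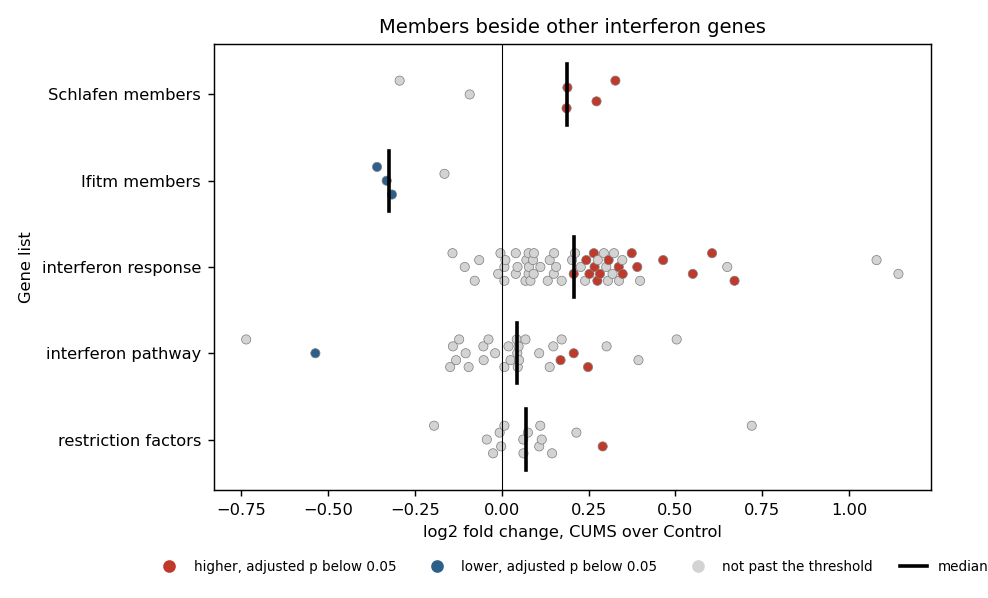
log2 fold change of CUMS over Control for every tested gene of 5 lists (rows), with a bar at each list's median; red and blue points passed the test at an adjusted p below 0.05. The Ifitm row lies left of 0 with a median of -0.32, and the interferon response row has a median of 0.21.

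The genes most alike in pattern over the 6 libraries were named for each member that passed, as a description, since the difference between the groups sets most of the likeness. By Pearson's r of log2 CPM, Slfn1 was closest to Il16 (r = 0.998) and to Elane (0.996), the neutrophil elastase gene in the title of the study. Slfn2 was closest to Tmem140 and Hnrnpa0 (0.995 and 0.993), Slfn5 to Esr1 and Bbs2 (0.999 and 0.994) and Slfn8 to Morc3 and Bbs2 (0.994 and 0.993). Ifitm1 was closest to Cd300lb and Ppt1 (0.997 and 0.996), Ifitm2 to Gm10273 and Spc24 (0.999 and 0.995) and Ifitm6 to Stfa3 and Litaf (0.996 and 0.995). Elane was scarce, with 2.67, 1.65 and 2.06 CPM in CUMS, against 0.599, 0.339 and 0.424 CPM in Control. Elane (log2 fold change 2.23 ± 0.32, adjusted p = 0.0025) and Esr1 (1.03 ± 0.25, adjusted p = 0.042) passed the test, and the other 11 did not. Esr1 missed the threshold whichever library was left out (adjusted p from 0.072 to 0.15).

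Markers of other cells give the setting of these values. In bulk libraries, fewer cells of a type and less RNA per cell cannot be told apart. All 12 neutrophil markers were present, and their sum exceeded that of every other list (111146 to 138115 CPM in CUMS, 130364 to 142440 CPM in Control). Of these markers Mmp9 rose (log2 fold change 0.12) and the granule protein genes Camp and Ltf fell (-0.27 and -0.11). Camp and Ltf, like the monocyte marker Csf1r, still passed without CUMS replicate 1 but not without any other single library, and Mmp9 missed the threshold without replicate 2 or 3 of either group (adjusted p of up to 0.21, 0.26, 0.11 and 0.18). Of 12 erythroid markers, 8 rose, with sums of 2534 to 3020 CPM in CUMS and 1316 to 1887 CPM in Control. Of 12 monocyte markers, 10 were higher and 2 lower in CUMS, with a median log2 fold change of 0.31. Of these, 3 rose (Fn1, F13a1 and Csf1r, by 1.38, 1.34 and 0.19 on the log2 scale). The sum of the 12 overlapped, at 736 to 824 CPM in CUMS and 759 to 812 CPM in Control. It was mostly Ly6c2, with a mean of 484 CPM in CUMS and 530 CPM in Control. The 10 B cell markers summed to 205 to 211 CPM in CUMS and 166 to 169 CPM in Control, with Ighm the marker that rose. All 8 eosinophil markers were higher in CUMS, with a median log2 fold change of 1.57, and 2 of them rose. These were Prg2, with 4.82 ± 0.708 CPM in CUMS and 0.885 ± 0.114 CPM in Control (SD, n = 3 each), and Epx. On the log2 scale Prg2 was 2.45 higher (adjusted p = 6.9e-05) and Epx 3.68 ± 0.73 higher (SE, adjusted p = 0.016). Epx had 1.33, 1.53 and 1.62 CPM in CUMS, against 0.217, 0 and 0.141 CPM in Control. With Control values this near 0, the size of the Epx change is uncertain. The eosinophil sums, mostly Ear2 and Siglecf, were 51.6 to 60.1 CPM in CUMS and 44.9 to 51.9 CPM in Control. The remaining lists, of T or NK, plasma, dendritic, basophil or mast, stem and progenitor, megakaryocyte, and endothelial or stromal cells, each summed to at most 68.5 CPM in a library, and 0 of their 36 tested markers passed with edgeR, while 7 had an unadjusted p under 0.05 and 1, Col1a1, passed with DESeq2. All 6 basophil or mast markers were lower in CUMS, with a median log2 fold change of -0.76. Their sums were 5.28 to 6.49 CPM in CUMS and 8.54 to 10.2 CPM in Control. All 5 plasma cell markers tested were higher (median 0.30), and the other lists held markers of both directions. Tnfrsf17 of the plasma cell list and Xcr1 of the dendritic cell list were at 0 in every library. The part of other cells in the Schlafen and Ifitm results was not tested.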

How the data were processed

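Per the labels' protocols, TruSeq libraries from total RNA (1 µg) were read as pairs of 150 bases. DESeq2 2.11.40.6, featureCounts 1.6.4, HISAT2 2.1, cutadapt 1.16.5, bcl2fastq 2.19 and build mm10 are named in the submitters' processing notes. The deposited files hold whole numbers per gene, taken here as estimated counts because multiples of 4 are over-represented, so that a read pair is worth about 4, and because 1588 rows carry assembled-transcript names. They sum to 78845457 to 109757558 per library (19711364 to 27439390 read pairs). All numbers of read pairs given here rest on that assumed factor of 4. The design had assumed plain counts. These values entered edgeR 4.0.16 (R 4.3.3) unchanged, already whole, with filterByExpr, TMM scaling and the quasi-likelihood F test on group, CUMS over Control, at an adjusted p of 0.05. CPM are TMM-scaled. Where rows share a symbol, the highest total was used.

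Tested on simulated counts with 15778 genes and 200 changed, the fit recovered 85.3% of 2-fold and 39.7% of 1.3-fold changes, and 10.9% of calls were false. Alternatives were other scaling, filter and count scale, DESeq2 1.42.0, a replicate block, summed rows and leaving out each library. Genes named were the members, their relatives, the 5 largest rises and 5 largest falls of each list (past the threshold, mean of at least 1 CPM), the 2 closest patterns to each called member and tested genes within 100 kb. Epx was named outside this rule. An item of the interferon lists is not reported here by name. Others are said to be chosen after their values were seen, as were the receptors. Members and lists were chosen with earlier results of these data known. Genes with near copies or overlaps are uncertain where reads are shared, and whether strand was kept is not given in the sources used here.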

Additional observations from a re-analysis of the deposited data

How the results depend on the processing

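With RLE scaling, library totals alone, totals without the 20 most abundant genes, a replicate block, values divided by 4 and summed rows, each called member stayed past the threshold, and every member kept its sign under all 14 alternatives. Without the filter on low counts 0 Ifitm members passed (Ifitm1 -0.35, Ifitm2 -0.32 and Ifitm6 -0.31 on the log2 scale, adjusted p 0.051, 0.097 and 0.071), with 462 genes called in place of 710. DESeq2 called 1239 genes, 25 interferon-response genes and 10 pathway or antiviral genes, but not Ifitm2 (-0.33, adjusted p 0.057), and with values divided by 4 the last count was 8 in place of 5.

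Leaving out 1 library at a time, between 2 and 3 Schlafen members, 0 and 4 Ifitm members, 6 and 11 interferon-response genes, 2 and 7 pathway or antiviral genes and 305 and 697 genes in all were called. The log2 fold changes then ran from 0.15 to 0.21 for Slfn2, 0.18 to 0.21 for Slfn5, -0.46 to -0.30 for Ifitm1, -0.43 to -0.25 for Ifitm2, -0.25 to -0.11 for Ifitm3 and -0.39 to -0.24 for Ifitm6. For single genes named beside the members, the sign turned for Ifitm5 without Control replicate 1 (0.047, range from -0.63) and for Ifitm10 without CUMS replicate 3 (0.021, range from -0.12). The cause was not tested, beyond the fewer samples in each such fit.

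Over all genes tested, libraries with the same replicate number did not deviate together (correlations 0.0081, 0.0035 and -0.026 for numbers 1 to 3). Such a correlation cannot decide whether the libraries were paired, because it can miss effects on few genes. With the replicate block Ifitm3 passed too (log2 fold change -0.17, adjusted p 0.035) and the number of Ifitm members called was 4. Slfn9 had 74.3 to 119 read pairs per library and a 95% interval from -0.63 to 0.04 on the log2 scale, and the part of depth in that width was not tested. DESeq2 gave an adjusted p to 10575 genes, of which it called 11.7%.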
